A study of Danio rerio with 4 samples.

Results

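Neuregulins are secreted or membrane-shed ligands of the epidermal growth factor family, and ErbB receptors are the tyrosine kinases that bind them. Neuregulins bind ErbB3 and ErbB4, heparin-binding EGF-like growth factor binds EGFR and ErbB4, and ErbB2 has no known ligand of its own and acts as the dimer partner of the others. In the zebrafish heart this pathway is known for its part in trabeculation, and nrg1 is known as a mitogen for cardiomyocytes after injury. The set described here holds 10 genes, chosen by name with earlier results of these data known. They are the ligands nrg1, nrg2a, nrg2b and hbegfa and the receptors egfra, erbb2, erbb3a, erbb3b, erbb4a and erbb4b. A gene belongs to the set when its symbol in the authors' deposited table of heart RNA equals one of these names, and 6 of the 10 do, among 14962 genes in all: nrg1, nrg2a, hbegfa, egfra, erbb2 and erbb4b. The symbols nrg2b, erbb3a, erbb3b and erbb4a have no row there.

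The libraries were labelled as hearts of adult Ekkwill zebrafish kept at 28 °C and given alfacalcidol or vehicle by injection once a day for 3 days, with hearts taken 24 hours after the last dose. Alfacalcidol is a synthetic vitamin D analog that the body hydroxylates to the active hormone. There were 2 libraries labelled alfacalcidol and 2 labelled vehicle, all from the same strain, with no transgene or mutation named. No label says whether the libraries of a label came from separate fish, so a p-value from the counts measures the spread between these libraries only.

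The deposited table and the count libraries did not show the same tissue and are described apart. In the authors' deposited table the 10 cardiomyocyte marker genes summed to 89501 CPM (read counts scaled to the same library size). In the count libraries the same 10 genes summed to 310 to 359 CPM under the alfacalcidol label and 309 to 346 CPM under the vehicle label. Markers of skeletal muscle summed there to 27554 to 32428 CPM under the alfacalcidol label and 29597 to 32522 CPM under the vehicle label. The 3 cartilage markers measured there came to at least 6331 CPM in every library. Summed mean levels in the authors' deposited table were 2918 CPM for skeletal muscle and 13.5 CPM for the 2 cartilage markers with a row. Endothelial and endocardial markers summed to 1128 CPM there and 191 to 202 CPM in the libraries. The summed epicardial and fibroblast markers had the other order, at 363 CPM there and 4130 to 4512 CPM in the libraries. Most of that library sum was col1a2 (2906 to 3153 CPM) and postnb (1039 to 1174 CPM). Of the other genes in that list, pdgfra, wt1a and wt1b were also higher in the libraries. Levels of tcf21, tbx18 and aldh1a2 were higher in the authors' deposited table, so the list had no single order. Neuron markers summed to 22.8 CPM over 2 genes in the authors' deposited table and 1176 to 1191 CPM over 4 genes in the libraries. Skin markers summed to 107 CPM over 3 genes in the authors' deposited table and 16694 to 25789 CPM over 4 genes in the libraries. The heart label is therefore borne out by the cardiomyocyte markers in the table and not in the 4 libraries, which are called by their labels only. Depth was 33957706 and 39572163 counts for alfacalcidol replicates 1 and 2, and 31427486 and 34765941 counts for vehicle replicates 1 and 2.

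Of the 6 genes, 2 ligand genes rose, 1 receptor gene fell and 3 genes were not called in the authors' deposited table. The genes that rose were nrg2a and hbegfa, and the gene that fell was egfra. The 3 without a call were nrg1, erbb2 and erbb4b. A call means an adjusted p under 0.05 in the authors' deposited table (edgeR, Benjamini-Hochberg), a mark that 20.1% of its 14962 genes pass, 10.9% upward and 9.22% downward. The table gives each difference as a log2 fold change, here called log2 change, and does not state its numerator. It is read as alfacalcidol over vehicle because cyp24a1, whose enzyme breaks down active vitamin D and which is a known target of the vitamin D receptor, has a value of 1.53 in the authors' deposited table. The mean level of cyp24a1 there was 3.69 CPM, with an edgeR adjusted p of 8.19e-05. Every direction taken from the table rests on that reading of cyp24a1. All 3 calls of the set passed at an adjusted p of 0.01 as well (13.7% of all genes), with a 1.5-fold minimum (17.8%) and with a log2 CPM of at least 1 (17.5%), and an adjusted p of 0.1 (25.4%) added none, in the authors' deposited table. Those outcomes follow from the listed values and are no separate check. The table holds no values per library, so no replicate spread can be given for it, and the libraries behind it are not named.

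Among the ligands, nrg2a (ENSDARG00000077818) lies on chromosome 21 at 28517347 to 28700626 in GRCz10. It encodes neuregulin 2a, a ligand needed for trabeculation of the zebrafish ventricle. The authors' deposited table lists nrg2a at a mean of 9.56 CPM and a log2 change of 0.82, which is 1.77-fold higher, with an edgeR adjusted p of 0.00137. Of all genes in the authors' deposited table, 12.0% had a larger absolute log2 change than nrg2a. The puraa gene lies inside the span of nrg2a (28687404 to 28692430), and its own log2 change in the authors' deposited table was 0.23 with an edgeR adjusted p of 0.448. Whether counting used strand is not given, so reads of the overlapping genes may not have been told apart.

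The hbegfa gene (ENSDARG00000075121) lies on chromosome 14 at 6742203 to 6745213 and encodes a heparin-binding ligand of EGFR and ErbB4. The authors' deposited table lists hbegfa at a mean of 91.8 CPM and a log2 change of 0.71, which is 1.63-fold higher, with an edgeR adjusted p of 0.00146. A larger absolute log2 change was listed for 15.6% of genes in the authors' deposited table. Its paralog hbegfb was not called in the authors' deposited table, at a mean of 1.18 CPM and a log2 change of 0.38 (edgeR adjusted p 0.460).

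The nrg1 gene (ENSDARG00000104314; chromosome 10, 7325421 to 7513659) encodes the neuregulin best known as a heart mitogen. The authors' deposited table lists nrg1 at a mean of 1.0 CPM and a log2 change of -0.68, with an edgeR adjusted p of 0.234. Only 1.07% of genes in the authors' deposited table had a lower mean level, and the lowest level listed was 0.647 CPM. The missed threshold does not show that nrg1 kept its level.

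Among the receptors, egfra (ENSDARG00000013847; chromosome 2, 3864859 to 3989336) encodes an EGF receptor, which binds HB-EGF and other EGF-like ligands. The authors' deposited table lists egfra at a mean of 22.6 CPM and a log2 change of -0.78, which is 1.72-fold lower, with an edgeR adjusted p of 0.000893. A larger absolute log2 change was listed for 13.2% of genes in the authors' deposited table. The receptor gene egfra and the ligand gene hbegfa thus moved in opposite directions there.

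The erbb2 gene (ENSDARG00000026294; chromosome 12, 9322473 to 9400384) encodes the shared dimer partner of the family. The authors' deposited table lists erbb2 at a mean of 21.5 CPM and a log2 change of 0.21, with an edgeR adjusted p of 0.489. The erbb4b gene (ENSDARG00000089536; chromosome 9, 39483706 to 39737569) encodes a neuregulin receptor. The authors' deposited table lists erbb4b at a mean of 1.92 CPM and a log2 change of -0.14, with an edgeR adjusted p of 0.811. These were the smallest values among the 6 genes: 59.7% of all genes in the authors' deposited table had a larger absolute log2 change than erbb2, and 71.5% had a larger one than erbb4b. A missed threshold does not show that erbb2 or erbb4b kept its level.

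One further row of the table carries a receptor name and lies outside the set, since its symbol equals none of the 10 names. It is ENSDARG00000090408, listed as ERBB4 (1 of many) with the clone name si:ch73-383l1.1, on chromosome 1 at 6637459 to 6765362. It was singled out after its value was seen. The authors' deposited table lists ERBB4 (1 of many) at a mean of 20.4 CPM and a log2 change of -1.18, which is 2.26-fold lower, with an edgeR adjusted p of 1.11e-07. A larger absolute log2 change was listed for 5.995% of genes in the authors' deposited table. The difference from egfra was not tested, and erbb4b, the other row with an ERBB4 name in the table, was not called. Whether ENSDARG00000090408 is erbb4a is not stated in the table.

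**Figure D1:**
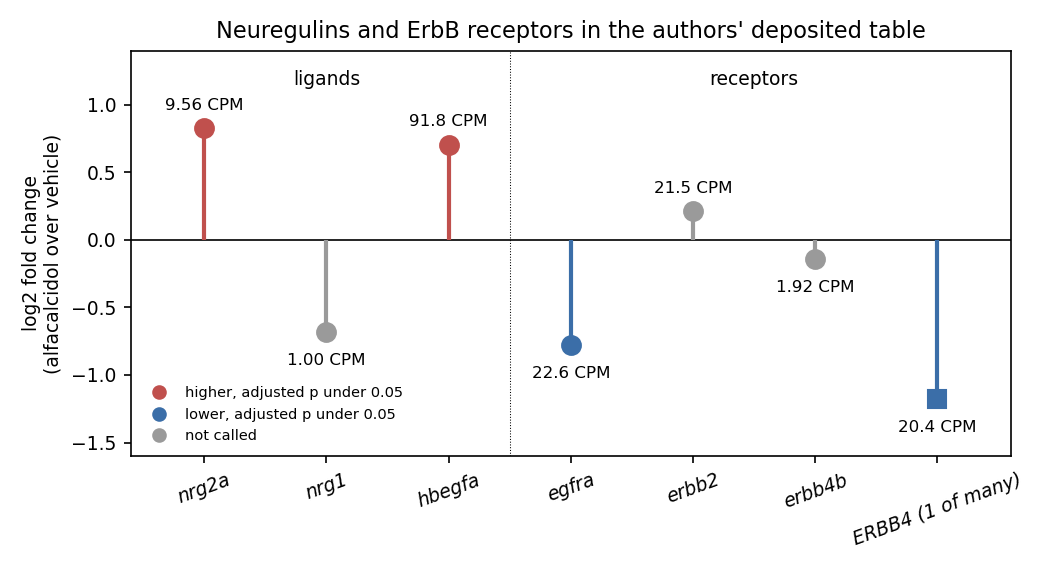
Log2 fold change of each gene in the authors' deposited table (vertical axis, alfacalcidol over vehicle as read from cyp24a1), ligands left and receptors right, with the mean level in CPM beside each point; the square marks the row outside the set. The ligand genes nrg2a (0.82) and hbegfa (0.71) are above 0 and called, egfra (-0.78) and ERBB4 (1 of many) (-1.18) are below 0 and called, and the grey points are not called.

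Some markers of heart cell types were called in the same table, where 10.9% of all genes were called higher and 9.22% lower. The counts below are to be read against those shares. The part of these markers in the values above was not tested. In bulk RNA, fewer cells of a type and less RNA per cell cannot be told apart. Of 8 endothelial and endocardial marker genes, the authors' deposited table has 4 lower and 0 higher by call, at a median log2 change of -0.49 and a summed mean level of 1128 CPM. Of 10 cardiomyocyte marker genes, the authors' deposited table has 3 lower and 0 higher, at a median log2 change of -0.39. The 3 were myh6, nppa and nppb. The other cardiomyocyte markers also had values below 0 but were not called, among them myl7, vmhcl and tnnt2a. Of 8 epicardial and fibroblast marker genes, the authors' deposited table has 1 lower and 0 higher, at a median of -0.13 and a summed level of 363 CPM. Of 6 perivascular and smooth muscle marker genes, the authors' deposited table has 1 higher and 1 lower, at a median of -0.31 and a summed level of 211 CPM. Only 2 of 6 Schwann cell and neural crest markers had a row, and 1 of them, mpz, fell (log2 change -0.998, mean 1.64 CPM in the authors' deposited table). Of 5 T cell markers only il2rga had a row in the authors' deposited table, at 2.08 CPM and without a call. The remaining marker lists had the following calls in the authors' deposited table, all of them lower: neuron 1 of 2 genes with a row, other blood 2 of 6, skeletal muscle 2 of 6, skin 1 of 3 and cartilage 0 of 2. The 2 skeletal muscle genes were acta1b and ckma. The other skeletal muscle markers had log2 changes of 0.060 to 0.23 in the authors' deposited table, without a call.

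The other genes of the pathway were taken from a list of 105 names ordered by role, of which 92 had a row. Of the 92, the authors' deposited table calls 7 higher and 7 lower and leaves 78 without a call. That is 15.2% called, against 20.1% of all genes. Their median log2 change was -0.087, against 0.0086 over all genes, in the authors' deposited table. By role, the called genes were 1 of 3 other ligands, 4 of 13 for ligand release, 4 of 12 for receptor turnover and inhibition, 0 of 21 adaptors, 1 of 13 from RAS to ERK, 1 of 20 from PI3K to AKT and 3 of 10 for ERK feedback, to be read against the 20.1% of all genes. Differences between roles were not tested.

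Of 3 other ligand genes with a row, btc fell and hbegfb and areg were not called. The authors' deposited table lists btc, which encodes betacellulin, a ligand of EGFR and ErbB4, at a log2 change of -0.81, a mean of 3.70 CPM and an edgeR adjusted p of 0.00872. The genes btc and hbegfa, whose products share receptors, had opposite signs there.

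Of 13 genes for proteases and other factors of ligand release, the authors' deposited table calls 2 higher and 2 lower. The largest was adam19b, whose mammalian counterpart can shed neuregulin, at a log2 change of 2.27, 4.81-fold higher, with an edgeR adjusted p of 1.98e-25 and a mean of 13.0 CPM in the authors' deposited table. The authors' deposited table also has adam12 higher, at a log2 change of 0.69 (edgeR adjusted p 0.00463). Lower in the authors' deposited table were adam9 and adam10a, at -0.75 (edgeR adjusted p 0.00109) and -0.49 (0.0372). For adam17a and adam17b, whose mammalian counterpart sheds HB-EGF, the authors' deposited table lists log2 changes of -0.014 and 0.013, neither called.

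Of 12 genes for receptor turnover and inhibition, the authors' deposited table calls 2 higher and 2 lower, beside 10.9% and 9.22% of all genes. Those that rose were the paralogs errfi1b and errfi1a, which encode inhibitors that bind the receptor kinase domain. The authors' deposited table lists errfi1b at a log2 change of 1.46 (edgeR adjusted p 3.49e-10; mean 25.7 CPM) and errfi1a at 0.995 (8.78e-07; mean 89.1 CPM). Those that fell were cblb and cbl, which encode ubiquitin ligases of the CBL family, known in mammals for sending EGFR to degradation. In the authors' deposited table cblb stood at a log2 change of -1.18 (edgeR adjusted p 8.63e-06) and cbl at -0.53 (0.0457). Kinase inhibitor genes and ligase genes for the same receptors thus had opposite signs in that table.

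Downstream of the receptors the called share was 0% for the adaptors, 7.69% from RAS to ERK, 5.0% from PI3K to AKT and 30.0% for ERK feedback, beside 20.1% of all genes in the authors' deposited table. Of 21 adaptor genes 0 passed an adjusted p of 0.05, and the lowest p was that of nck1a which the authors' deposited table lists at a log2 change of -0.48 (edgeR adjusted p 0.0538; 1 of the 21, nck1a, had an unadjusted p under 0.05). Of 13 genes from RAS to ERK, hrasb was the single call, listed in the authors' deposited table at a log2 change of -0.56 (edgeR adjusted p 0.0166). Of 20 genes from PI3K to AKT, akt1 was the single call, at 1.21 in the authors' deposited table (edgeR adjusted p 3.67e-06; mean 5.22 CPM). In the ERK feedback role, spry4 and etv5b rose and spred2a fell in the authors' deposited table, at log2 changes of 2.35, 0.82 and -0.77 (edgeR adjusted p 2.39e-16, 0.0209 and 0.0187), and the other 7 of 10 were not called.

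**Figure D2:**
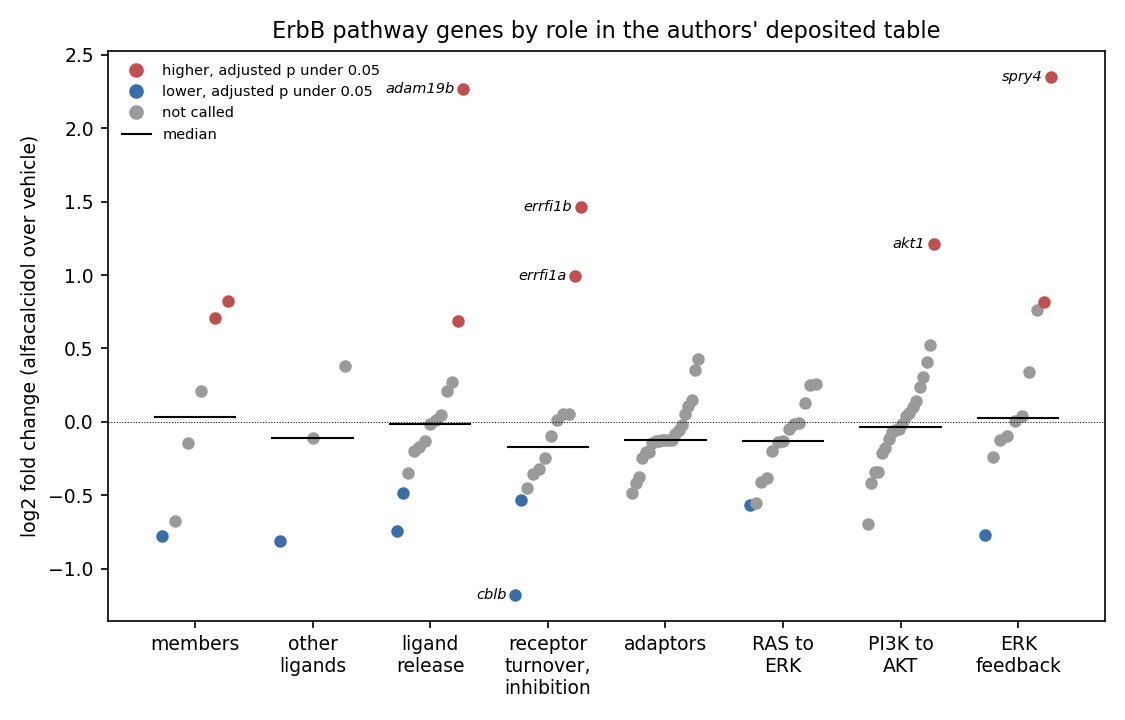
Log2 fold change in the authors' deposited table (vertical axis) of the 6 genes of the set (members) and of 92 other ErbB pathway genes by role (horizontal axis); each point is a gene, and black lines are medians. Called genes number 1 of 3 other ligands, 4 of 13 for ligand release, 4 of 12 for receptor turnover and inhibition and 0 of 21 adaptors. They number 1 of 13 from RAS to ERK, 1 of 20 from PI3K to AKT and 3 of 10 for ERK feedback. Of the 92 genes 15.2% were called, against 20.1% of all genes.

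In the count libraries the genes of the set showed no called difference between the labels. For these libraries 7 of the 10 genes have a named Ensembl ID: the 6 above and erbb3b, which a table of gene names adds. The edgeR quasi-likelihood test called 0 of the 7 and 0 of 22428 genes fitted (0% of all genes). DESeq2 and limma-voom also called 0 of each. At an unadjusted p under 0.05 the edgeR test had 0 of the 7 genes and 128 of all genes, against 20 of all genes with DESeq2 and 121 with limma-voom. The log2 changes of the 7 genes ran from -0.26 to 0.21 with a median of -0.019, beside a median of -0.0017 over all genes.

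Of the ligands, nrg1 stood at 11.1 and 9.50 CPM in alfacalcidol replicates 1 and 2, against 11.5 and 13.1 CPM in vehicle replicates 1 and 2. The alfacalcidol values of nrg1 lay below both vehicle values. Its log2 change was -0.26 (95% interval -0.57 to 0.061; edgeR adjusted p 1.0). The nrg2a gene stood at 11.7 and 13.1 CPM in the alfacalcidol libraries, against 10.1 and 11.8 CPM in the vehicle libraries. These ranges overlap, and the log2 change of nrg2a was 0.18 (95% interval -0.12 to 0.47; edgeR adjusted p 1.0). The hbegfa gene stood at 17.2 and 17.1 CPM in the alfacalcidol libraries, against 16.6 and 16.6 CPM in the vehicle libraries. All 4 libraries lay close together for hbegfa, with the alfacalcidol values just above, and the log2 change was 0.046 (95% interval -0.16 to 0.25; edgeR adjusted p 1.0).

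Of the receptors, egfra stood at 44.1 and 47.6 CPM in alfacalcidol replicates 1 and 2, against 51.0 and 42.0 CPM in vehicle replicates 1 and 2. The vehicle values of egfra enclosed the alfacalcidol values, and its log2 change was -0.019 (95% interval -0.28 to 0.25; edgeR adjusted p 1.0). The erbb2 gene stood at 20.7 and 23.3 CPM in the alfacalcidol libraries, against 24.4 and 21.9 CPM in the vehicle libraries. These overlap too, with a log2 change of -0.073 (95% interval -0.32 to 0.17; edgeR adjusted p 1.0). The receptor gene erbb3b, known in zebrafish for its role in neural crest and Schwann cells, stood at 17.8 and 16.3 CPM in the alfacalcidol libraries, against 18.4 and 18.9 CPM in the vehicle libraries. Its alfacalcidol values lay below both vehicle values, with a log2 change of -0.13 (95% interval -0.36 to 0.096; edgeR adjusted p 1.0). The erbb4b gene stood at 7.27 and 6.39 CPM in the alfacalcidol libraries, against 6.17 and 5.61 CPM in the vehicle libraries. Its alfacalcidol values lay above both vehicle values, with a log2 change of 0.21 (95% interval -0.15 to 0.57; edgeR adjusted p 1.0).

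The groups of libraries thus did not overlap for 4 of the 7 genes (nrg1, hbegfa, erbb3b and erbb4b), where 21.1% of all genes fitted did not overlap, and none of the 4 passed the test. Counts per library ran from 194 reads for erbb4b to 1885 reads for egfra. For the 4 libraries together, the chi-square per degree of freedom against shares set by depth alone, which is 1 for pure counting error, was 0.197 for hbegfa and 11.4 for egfra. The other 5 genes lay between 2.57 for erbb4b and 7.34 for nrg1. For a given relative spread this value grows with the read count, and it includes any difference between the labels. It therefore does not rank the genes by noise, and it was not computed over all genes.

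The 4 libraries also differed within each label in the markers of other tissues. The skin markers summed to 16694 and 24797 CPM in alfacalcidol replicates 1 and 2, against 25789 and 16717 CPM in vehicle replicates 1 and 2, all 4 listed genes being measured. The skeletal muscle markers ran the other way, at 32428 and 27554 CPM in the alfacalcidol libraries and 29597 and 32522 CPM in the vehicle libraries. The Schwann cell and neural crest markers summed to 89.7 and 69.4 CPM in the alfacalcidol libraries, against 69.0 and 97.1 CPM in the vehicle libraries, over the 5 of 6 genes with an ID. Within that list sox10 had the opposite order, at 34.6 and 37.2 CPM in the alfacalcidol libraries, against 37.4 and 35.9 CPM in the vehicle libraries, and foxd3 was at 0 in every library. The part of these tissues in the values of the set was not tested.

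Further Ensembl IDs carry a family name in the table of gene names without being one of the 10 symbols. The gene named ERBB3 (ENSDARG00000006202) stood at 73.4 and 64.0 CPM in the alfacalcidol libraries, against 68.4 and 69.2 CPM in the vehicle libraries, with a log2 change of -0.0032 (95% interval -0.22 to 0.22). The gene named NRG2 (ENSDARG00000086585), which is not nrg2a, stood at 27.7 and 27.2 CPM in the alfacalcidol libraries, against 26.3 and 27.7 CPM in the vehicle libraries, with a log2 change of 0.021 (95% interval -0.18 to 0.22). A gene named ERBB4 (ENSDARG00000063207) stood at 7.89 and 7.15 CPM in the alfacalcidol libraries, against 7.29 and 6.82 CPM in the vehicle libraries, with a log2 change of 0.093 (95% interval -0.23 to 0.42). All of these ranges overlap. The table row ERBB4 (1 of many) stood at 3.48 and 4.88 CPM in the alfacalcidol libraries, against 3.66 and 3.57 CPM in the vehicle libraries, with a log2 change of 0.21 (95% interval -0.28 to 0.71). Its alfacalcidol values lay on either side of the vehicle values. Whether these IDs are erbb3a, nrg2b and erbb4a is not stated in the name table, so no value is given under those symbols.

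**Figure D3:**
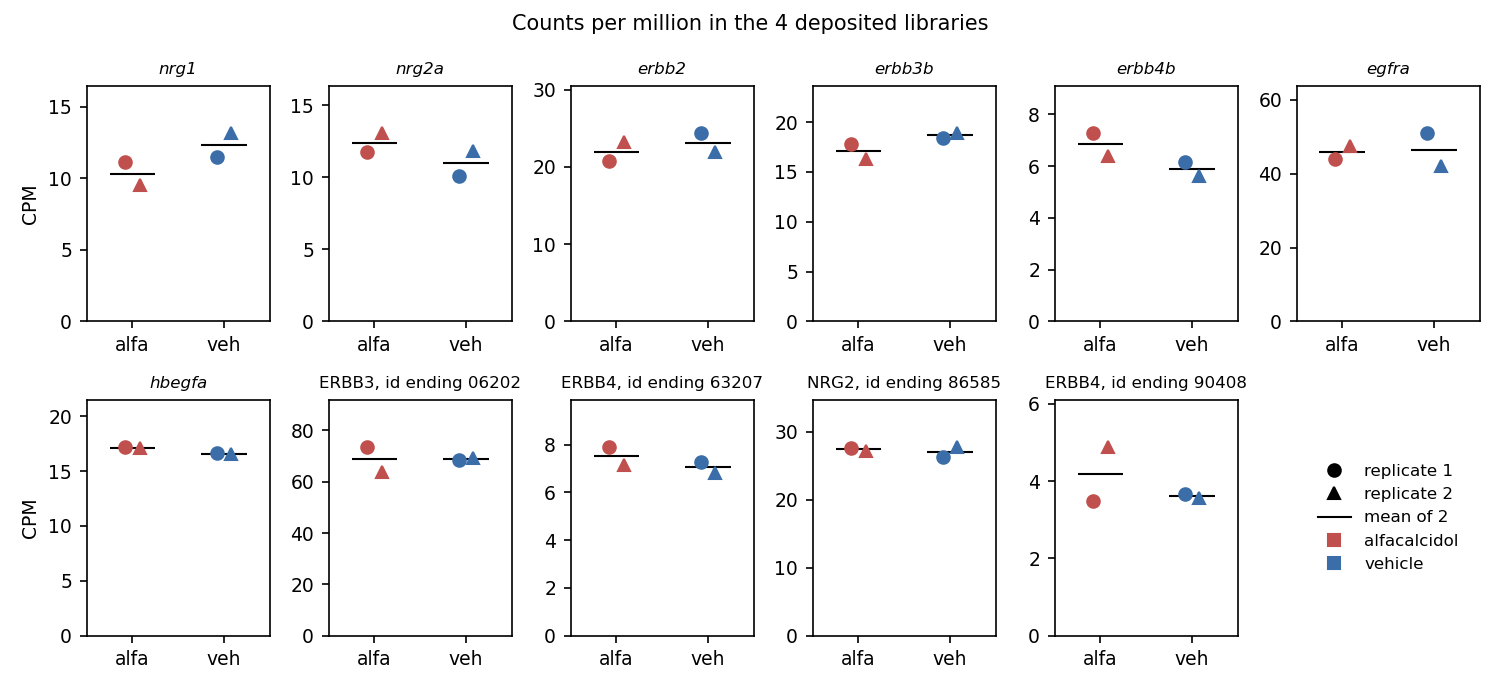
CPM (vertical axes, from 0) in the 4 count libraries for the 7 genes of the set with a named ID and 4 further genes with a family name, alfacalcidol (alfa) left and vehicle (veh) right; points are libraries and lines are means of 2. The alfacalcidol and vehicle points lie apart for nrg1, erbb3b, erbb4b and hbegfa, by small amounts, and overlap for the others.

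For the same genes, levels and changes in the table can be set beside those in the libraries. The levels were scaled separately and are given without a test. In the authors' deposited table nrg1 stood at 1.0 CPM, while the libraries had 9.50 to 13.1 CPM. Likewise the authors' deposited table has erbb4b at 1.92 CPM, and the libraries had 5.61 to 7.27 CPM. The order was the other way for hbegfa, which the authors' deposited table has at 91.8 CPM where the libraries had 16.6 to 17.2 CPM. It was the other way too for ERBB4 (1 of many), with 20.4 CPM in the authors' deposited table, while the libraries had 3.48 to 4.88 CPM. For egfra the level was 22.6 CPM in the authors' deposited table where the libraries had 42.0 to 51.0 CPM. For nrg2a the authors' deposited table has 9.56 CPM, just below the 10.1 to 13.1 CPM of the libraries. The erbb2 level of 21.5 CPM in the authors' deposited table lay within the 20.7 to 24.4 CPM of the libraries. The 95% intervals of the log2 change in the libraries left out the values that the authors' deposited table lists for all 3 called genes. For nrg2a the upper bound was 0.47 beside 0.82 in the authors' deposited table, and for hbegfa it was 0.25 beside 0.71. For egfra the lower bound was -0.28 beside -0.78 in the authors' deposited table. They also left out the listed values of nrg1, erbb2 and ERBB4 (1 of many). For erbb4b the value of -0.14 in the authors' deposited table lay inside the interval. The listed values carry no interval of their own, and nrg1 and erbb2 were not called there. A listed value outside an interval is therefore no test that the sources differ, and the sources did not show the same tissue.

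**Figure D4:**
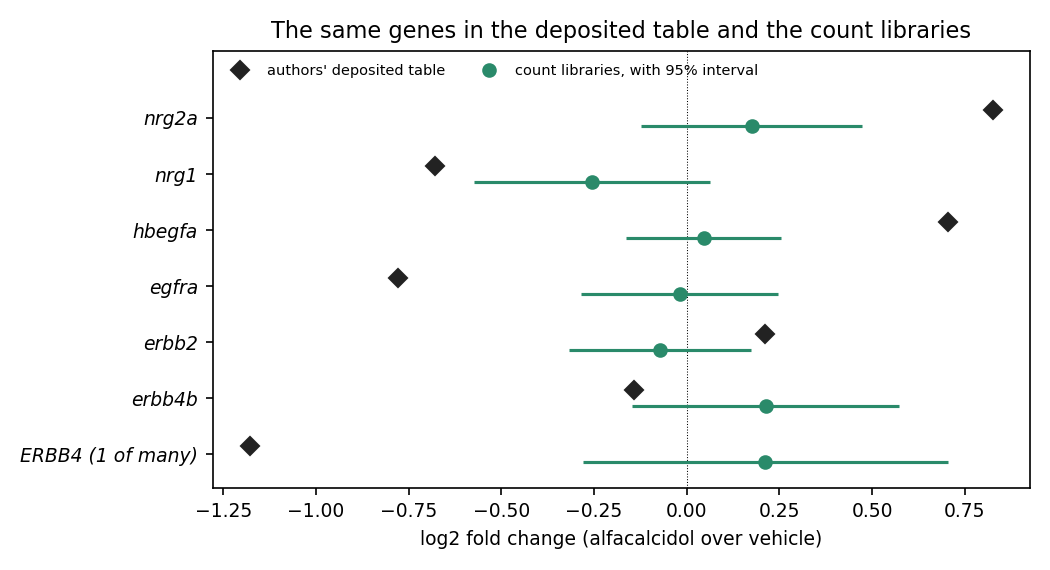
Log2 fold change (horizontal axis, alfacalcidol over vehicle) of the same genes in the authors' deposited table (diamonds) and in the count libraries (circles with 95% intervals from the edgeR quasi-likelihood fit). The diamond lies outside the interval for every gene but erbb4b. The diamonds carry no interval, and the difference between the sources was not tested.

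The other pathway genes gave no call in the count libraries. Of 99 with an ID and enough reads, the edgeR quasi-likelihood test called 0, with 0 at an unadjusted p under 0.05, and DESeq2 and limma-voom also called 0 and had 0 there. Of all 22428 genes fitted, only 128 had an edgeR unadjusted p under 0.05, so 0 of 99 does not show kept levels. The log2 changes of the 99 genes ran from -0.17 to 0.27 with a median of -0.00023, and the libraries did not overlap between labels for 12 of them, which is fewer than 21.1% of the 99. The gene with the lowest p was errfi1b, at a log2 change of 0.27 (95% interval -0.027 to 0.57; edgeR adjusted p 1.0), while errfi1a stood at -0.020 (95% interval -0.27 to 0.23). For adam19b the value was -0.061 (95% interval -0.31 to 0.19). Ligand genes without a row in the table were measured here too: egf, tgfa, epgn and nrg3b had log2 changes of -0.014, 0.082, 0.14 and 0.039, none called.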

How the data were processed

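Raw read counts per Ensembl gene for 4 libraries are the authors' own. The submitters' processing notes name CASAVA, TopHat2 and featureCounts, and the build GRCz10. The log2 fold changes and log2 CPM of 14962 genes come from 1 comparison table that the authors made with edgeR, per the same notes. Its deposited p-values include an adjusted column, and that column was checked against a Benjamini-Hochberg adjustment of the unadjusted one, with no difference beyond rounding. Tool versions, strand setting, the handling of shared reads and the low-level filter are not stated in the labels or headers. No test was run on the table.

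From the counts, CPM was computed on library totals (31427486 to 39572163 reads). All genes were fitted with the edgeR 4.0.16 quasi-likelihood test in R 4.3.3 (TMM scaling, two-sided, filterByExpr keeping 22428 genes, no term but group) and adjusted over all of them. Its intervals use the quasi-likelihood standard error. Alternatives were other scalings and filters, DESeq2 1.42.0, limma-voom (limma 3.58.1), a replicate block, each library left out, and other thresholds on the table.

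The members, the pathway and marker lists and the naming rule were chosen with earlier results of these data known. The rule named all members and, per role, up to 4 other pathway genes called in the table, taken by p, and otherwise the gene of smallest p. The genes hbegfb, areg, adam17a, adam17b, egf, tgfa, epgn, nrg3b, ERBB4 (1 of many) and puraa were named after their values were seen. So were the marker genes mpz, il2rga, myh6, nppa, nppb, myl7, vmhcl, tnnt2a, sox10 and foxd3. The same holds for the marker genes col1a2, postnb, pdgfra, wt1a, wt1b, tcf21, tbx18, aldh1a2, acta1b and ckma. No genes of like pattern were sought, since 4 libraries are too few. Transcript lengths were not used here, so levels were mostly not compared between genes. The exceptions are the place of nrg1 among all genes by mean CPM and the marker sums, which take no account of length. No protein or promoter sequences were used here.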

Additional observations from a re-analysis of the deposited data

How the results depend on the processing

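In the authors' deposited table the 3 calls in the set were nrg2a, hbegfa and egfra, where 20.1% of all genes were called. They also passed at an adjusted p of 0.01 (13.7% of all genes pass) and with a 1.5-fold minimum (17.8%) or a log2 CPM of at least 1 (17.5%). These outcomes follow from the listed values, and no processing step behind the authors' deposited table was varied, so they are no separate check. With the row ERBB4 (1 of many) counted, an alternative chosen after seeing the data, the calls numbered 4, beside the same 20.1% of all genes. The other pathway genes called numbered 14 at an adjusted p of 0.05 (7 higher and 7 lower, where 20.1% of all genes pass). They numbered 9 at 0.01 (6 and 3, beside 13.7%), 20 at 0.1 (8 and 12, beside 25.4%) and 11 with a 1.5-fold minimum (7 and 4, beside 17.8%). In the count libraries 0 genes of the set and 0 other pathway genes were called under the 9 alternatives that leave out no library (edgeR fits, DESeq2 and limma-voom). Over all genes these alternatives also called 0, except 7 with the crossed pairing given below, so 0 calls are not particular to the set. At an unadjusted p under 0.05 they had at most 1 gene of the set and 4 other pathway genes. Both came with the crossed pairing, beside 788 of 22428 genes. The replicate block on the numbers in the titles called 0 of all genes (39 at an unadjusted p under 0.05). Same-numbered libraries deviated apart (correlation -0.47 over 22428 genes). With 2 libraries per label the deviations mirror each other, so the opposite pairing was bound to show the same value with its sign reversed. That crossed pairing (alfacalcidol 2 with vehicle 1, alfacalcidol 1 with vehicle 2) was added after seeing the data. With that block edgeR called 7 of all genes and 0 of the set, with 788 of all genes at an unadjusted p under 0.05 against 128 without a block. The pairing was chosen from these same counts because its libraries deviated together, so the rise follows in part from that choice. Leaving out each library in turn, values changed sign for 2 genes of the set, erbb2 (-0.16 to 0.0039) and egfra (-0.15 to 0.13), and for 3 of the 4 other family names: ERBB3 (-0.11 to 0.10), NRG2 (-0.018 to 0.062) and the ERBB4 gene ENSDARG00000090408 (-0.052 to 0.43). Of the other genes, none called, nrg1 ran from -0.38 to -0.14, nrg2a from 0.067 to 0.30, erbb4b from 0.11 to 0.31, erbb3b from -0.20 to -0.063 and hbegfa from 0.039 to 0.052. The 95% intervals of the 7 genes reached 0.21 to 0.36 to each side on the log2 scale.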
